A study of Mus musculus with 2 samples.

Results

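Homologous recombination copies an intact sister chromatid to mend a broken or stalled DNA strand, and the Fanconi pathway clears crosslinks that hold the strands of the helix together. In recombination the break is first resected, BRCA2 with its partners then acts on the single strand, and helper proteins drive strand exchange. Both pathways are known to work mainly in S and G2 phase, when a sister copy exists, and ataxia telangiectasia kinases and the checkpoint kinases report the damage to the cell cycle. Ependymal progenitors pass through a deuterosomal stage, in which centrioles are amplified without cell division, before they become multiciliated cells (MCCs). An endocycle during that differentiation is the subject named in the title of the series. The 34 genes described here are the homologous recombination and Fanconi repair genes chosen by symbol, with 4 checkpoint kinases and the uracil glycosylase Ung, among 32287 genes in the table, and all 34 were found.

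Cells came from primary cultures of lateral ventricular walls of newborn mice (P0 to P2), grown to confluence, shaken to remove other cells, and kept 2 days without serum before 10x 3′ sequencing. The substrain was C57BL/6N in replicate 1 but C57BL/6J in replicate 2, and no transgene or drug was used according to the labels. The deposited table of UMI (unique molecular identifier) counts held 12028 cells and 173510950 UMIs in replicate 1 and 4373 cells and 70611931 UMIs in replicate 2, with medians of 12708 and 14409 UMIs per cell, and 13 cell barcodes occurred in both. Litter and culture day are not labelled. Tests held library as a block, so p-values do not measure the plain difference between the replicates. They measure how far differences between populations varied from 1 library to the other, pooled over the populations in the fit. That spread comes from these samples only and may be technical.

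The populations and the cell cycle classes are those of the submitters' cell metadata, and both were presumably assigned from these same transcripts. In replicates 1 and 2, mid deuterosomal cells numbered 880 and 353, cycling progenitors 520 and 239, progenitors I 2374 and 1218, and progenitors II 1765 and 747. Cells of class S/G2 made up 78.8% and 82.7% of mid deuterosomal cells and 39.6% and 40.6% of cycling progenitors. The names were checked against markers. Summed over 5 deuterosomal markers, with Deup1 among them, the level was 1583 and 1658 CPM (UMIs of the summed population, scaled to a common total) in mid deuterosomal cells, against 117 and 109 CPM in cycling progenitors. Summed over 5 markers of dividing cells, none of them at 0, it was 757 and 936 CPM in mid deuterosomal cells, 2210 and 2618 CPM in cycling progenitors, and between 16.7 and 24.8 CPM in progenitors I and II. Mki67 was lower in mid deuterosomal cells than in cycling progenitors (log2 fold change −4.23 ± 0.36), whereas Top2a was at −0.39 ± 0.29 and did not pass the test (adjusted p = 0.267). The part of these markers in the results below was not tested, except by leaving out deuterosomal cells with an Mki67 UMI and, for the early stage, those with an Mki67 or Top2a UMI.

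Members were sorted by the test of summed counts (edgeR, adjusted p under 0.05 over all genes). A gene counted as kept when mid deuterosomal cells were above progenitors I and II. It counted as not kept when cycling progenitors were above progenitors I and II, mid deuterosomal cells were below cycling progenitors, and mid deuterosomal cells were not called above progenitors I and II. By this rule 25 members were kept, where 38.9% of all genes were. Kept does not mean level with cycling progenitors: of the 25, 6 were called above them, 9 below them and 10 neither. Of all genes tested, 34.4% were called above and 28.6% below cycling progenitors, and the shares among all kept genes were not computed. Among the 6, the call of Rad50 was lost under 8 of 10 alternatives and that of Xrcc2 under 6 of 10. Another 7 were high in cycling progenitors but not kept at the mid stage (Rad51b, Rad51c, Nbn, Fancg, Fancm, Chek1 and Ung), and the share of all genes meeting that rule was not computed. The rule reads the mid stage alone: of these 7, Nbn and Fancg were above progenitors I and II in early deuterosomal cells, and Rad51b and Rad51c in MCCs. Under 10 alternatives each, the call of Rad51b held throughout and that of Nbn was lost under 1. That of Fancg was lost under 3 and changed sign under 1 more. The call of Rad51c was lost under 2 and changed sign under 1 more. Fancc and Fance fell under neither. Without deuterosomal cells that had an Mki67 UMI (26.3% and 38.8% of mid deuterosomal cells) and cycling progenitors that had a Deup1 or Ccdc78 UMI, an alternative added after the data were seen, the counts were again 25 and 7.

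The promoters of the extremes of each class are shown because all these genes were high in cycling progenitors while they parted in deuterosomal cells. Windows reach from 250 bases before to 50 bases after the start of the RefSeq transcript (GRCm38.p6), and 26 of the 34 genes had one. They are Fancb and Atm, the kept genes with the largest and smallest difference between mid deuterosomal cells and progenitors I and II, and Rad51c and Ung, the largest and smallest among those not kept. Capitals mark letters of the E2F motif on either strand.
Fancb, chrX:164980342-164980641, + strand: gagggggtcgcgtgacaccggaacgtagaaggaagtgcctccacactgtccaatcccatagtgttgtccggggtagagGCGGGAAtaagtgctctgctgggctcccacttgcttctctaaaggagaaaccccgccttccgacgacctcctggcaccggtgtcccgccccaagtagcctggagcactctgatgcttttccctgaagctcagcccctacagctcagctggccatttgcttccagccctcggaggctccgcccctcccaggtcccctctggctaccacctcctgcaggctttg
Atm, chr9:53536622-53536921, - strand: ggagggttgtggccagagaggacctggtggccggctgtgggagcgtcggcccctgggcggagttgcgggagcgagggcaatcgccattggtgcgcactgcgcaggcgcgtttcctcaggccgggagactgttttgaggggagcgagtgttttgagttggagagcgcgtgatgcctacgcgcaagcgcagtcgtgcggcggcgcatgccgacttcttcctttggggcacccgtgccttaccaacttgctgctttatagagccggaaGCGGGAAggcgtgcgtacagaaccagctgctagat
Rad51c, chr11:87404905-87405204, - strand: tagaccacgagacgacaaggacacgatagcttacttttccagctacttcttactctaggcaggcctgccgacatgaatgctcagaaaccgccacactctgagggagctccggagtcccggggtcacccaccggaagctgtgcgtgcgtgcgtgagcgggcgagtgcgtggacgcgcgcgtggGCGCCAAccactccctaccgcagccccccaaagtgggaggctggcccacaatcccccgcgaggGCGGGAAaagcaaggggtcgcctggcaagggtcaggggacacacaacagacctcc
Ung, chr5:114130185-114130484, + strand: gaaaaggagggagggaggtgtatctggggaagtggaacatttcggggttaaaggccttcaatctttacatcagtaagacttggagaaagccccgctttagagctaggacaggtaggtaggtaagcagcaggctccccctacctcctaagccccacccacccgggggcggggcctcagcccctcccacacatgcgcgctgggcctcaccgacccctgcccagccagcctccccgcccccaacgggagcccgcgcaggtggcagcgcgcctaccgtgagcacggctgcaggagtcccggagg
E2F sites were searched as TTCCCGC or TTGGCGC or TTCGCGC or TTGCCGC on both strands. They occurred in the windows of 15 of the 26 genes, against 10.9% of all 27025 genes with a window. Among the kept genes 11 of 18 held one, and among those not kept 4 of 6. Fancb had its match 172 bases before the start and Atm 15 bases after it, Rad51c had 2 in the window shown and 1 in its other window, and Ung had none. The CHR element (TTTGAA or TTCGAA), a site of G2 and M phase genes, was in 3 of the 26 (Atr, Bard1 and Rad51b) and in 21.7% of all genes. CCAAT was in 17 of 26 and in 41.1% of all genes. The RFX motif GTTGCC was in 4 of 26 (Brca2, Fancc, Fanci and Fancm) and in 14.1%. A match is a description of these letters and shows no binding.

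In mid deuterosomal cells against cycling progenitors, 6 of the 34 members were higher and 17 lower, and 11 did not pass the test. Of all 15877 genes tested 34.4% were higher and 28.6% were lower. The members' median log2 fold change was −0.65, and that of all genes was 0.07. Against progenitors I and II, 25 members were higher in mid deuterosomal cells and 2 were lower, where 38.9% and 33.2% of all genes were, and the medians were 1.58 and 0.07. These 2 comparisons share the mid deuterosomal cells. Cycling progenitors themselves were above progenitors I and II for 31 of the 34 members and below them for 0 (edgeR; 32 members had an unadjusted p under 0.05, and DESeq2 called 31 higher and 1 lower), where 17.4% of all genes were higher and 21.3% lower. The medians were 2.99 for the members and −0.10 for all genes.

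**Figure D1:**
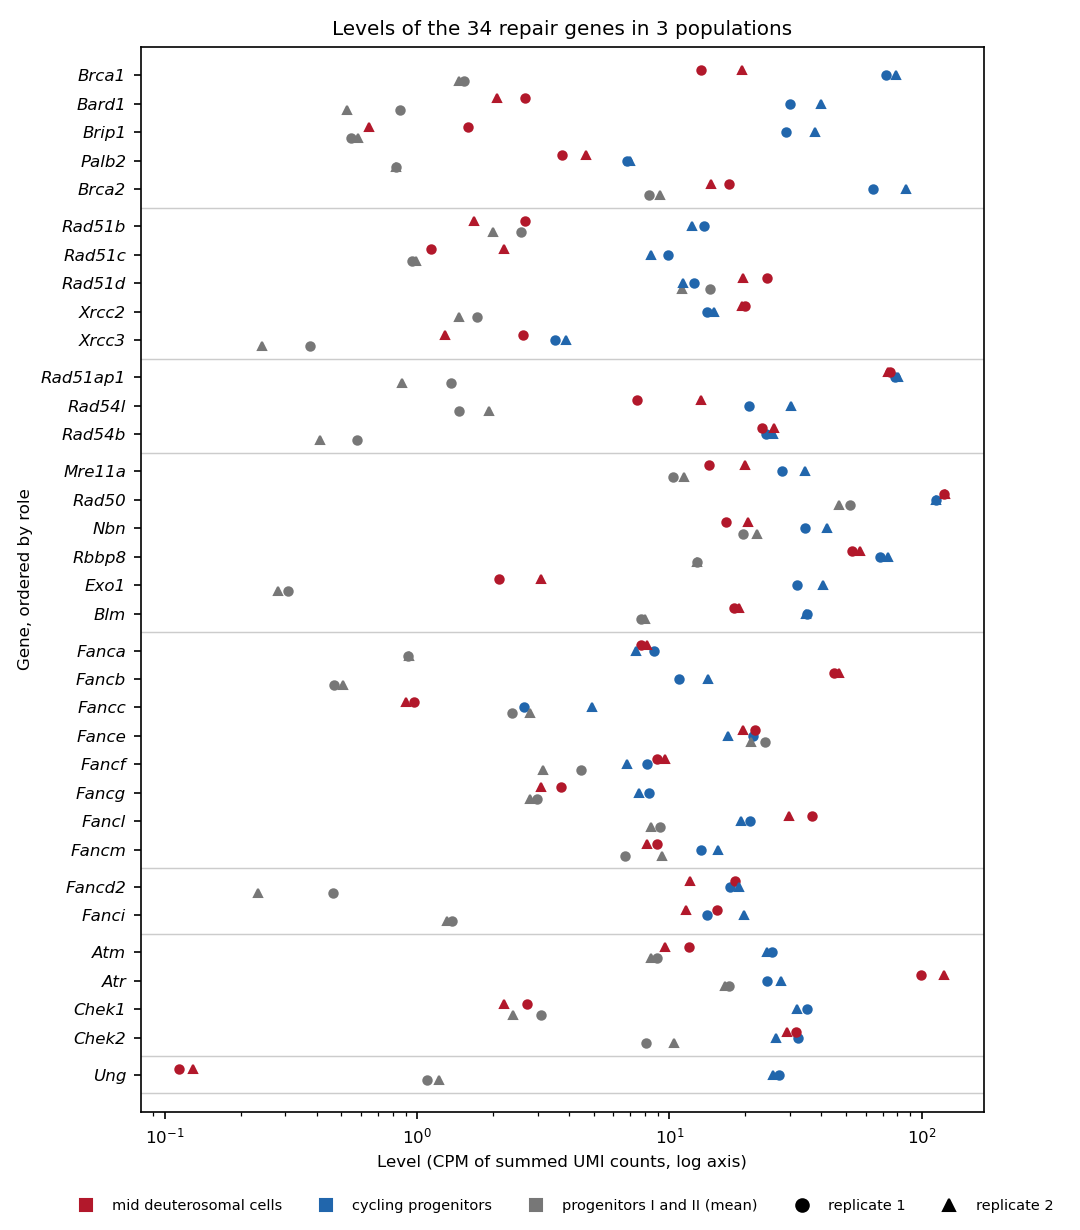
Level of each of the 34 genes in CPM on a log axis, ordered by role, with 1 point per library in mid deuterosomal cells, in cycling progenitors and in progenitors I and II (mean of both). Atr and Fancb lie furthest to the right of cycling progenitors, while Ung, Brip1, Bard1, Exo1 and Chek1 lie far to the left of them.

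The checkpoint kinases parted widely. Atr (chr9:95857597-95951781, + strand) encodes the kinase that answers stalled forks and single-stranded DNA. It had 99.5 and 123 CPM in the mid deuterosomal cells of replicates 1 and 2, 24.4 and 27.7 CPM in cycling progenitors, and 17.1 and 16.6 CPM in progenitors I and II. Mid deuterosomal cells were highest in both libraries and did not overlap with either progenitor group (log2 fold change 2.19 ± 0.16 against cycling progenitors, adjusted p = 1.03e-11, and 2.76 ± 0.12 against progenitors I and II, adjusted p = 1.72e-16). With every cell thinned to 5000 UMIs, an Atr UMI was found in 35.2% (95% exact interval 32.0 to 38.5) and 44.8% (39.5 to 50.2) of mid deuterosomal cells and in 11.8% and 13.3% of cycling progenitors. Progenitors I, at the same depth, had one in 7.19% and 6.61% of cells. Without thinning the shares were 78.5% and 79.0% of mid deuterosomal cells and 30.8% and 38.1% of cycling progenitors, at medians of 17984 and 20436 UMIs and 16952 and 20007 UMIs per cell.

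Chek1, the kinase that ATR activates and that holds back entry into mitosis, did the opposite. It had 2.73 and 2.20 CPM in mid deuterosomal cells, 35.1 and 32.0 CPM in cycling progenitors, and 3.09 and 2.40 CPM in progenitors I and II. Mid deuterosomal cells thus lay at 7.32% ± 0.65 (SD, n = 2 libraries) of the level in cycling progenitors (log2 fold change −3.62 ± 0.17, adjusted p = 4.27e-15) and were not called against progenitors I and II (−0.09 ± 0.21, adjusted p = 0.704). A Chek1 UMI was found in 1.26% and 1.16% of thinned mid deuterosomal cells, in 18.1% and 13.3% of cycling progenitors and in 1.59% and 0.991% of progenitors I.

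Chek2, which works downstream of ATM, had 31.7 and 29.2 CPM in mid deuterosomal cells, 32.5 and 26.5 CPM in cycling progenitors, and 8.05 and 10.4 CPM in progenitors I and II. It was above progenitors I and II (1.83 ± 0.13, adjusted p = 1.19e-12) and was not called against cycling progenitors (0.14 ± 0.15, adjusted p = 0.417). Atm, the kinase of open DNA breaks, had 12.0 and 9.58 CPM in mid deuterosomal cells, 25.5 and 24.4 CPM in cycling progenitors, and 8.92 and 8.44 CPM in progenitors I and II. It was lower than in cycling progenitors (−1.07 ± 0.16, adjusted p = 1.42e-06) and 0.39 ± 0.14 above progenitors I and II (adjusted p = 0.0138), a call lost under 4 of 9 alternatives (adjusted p between 0.0107 and 0.103 over them).

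**Figure D2:**
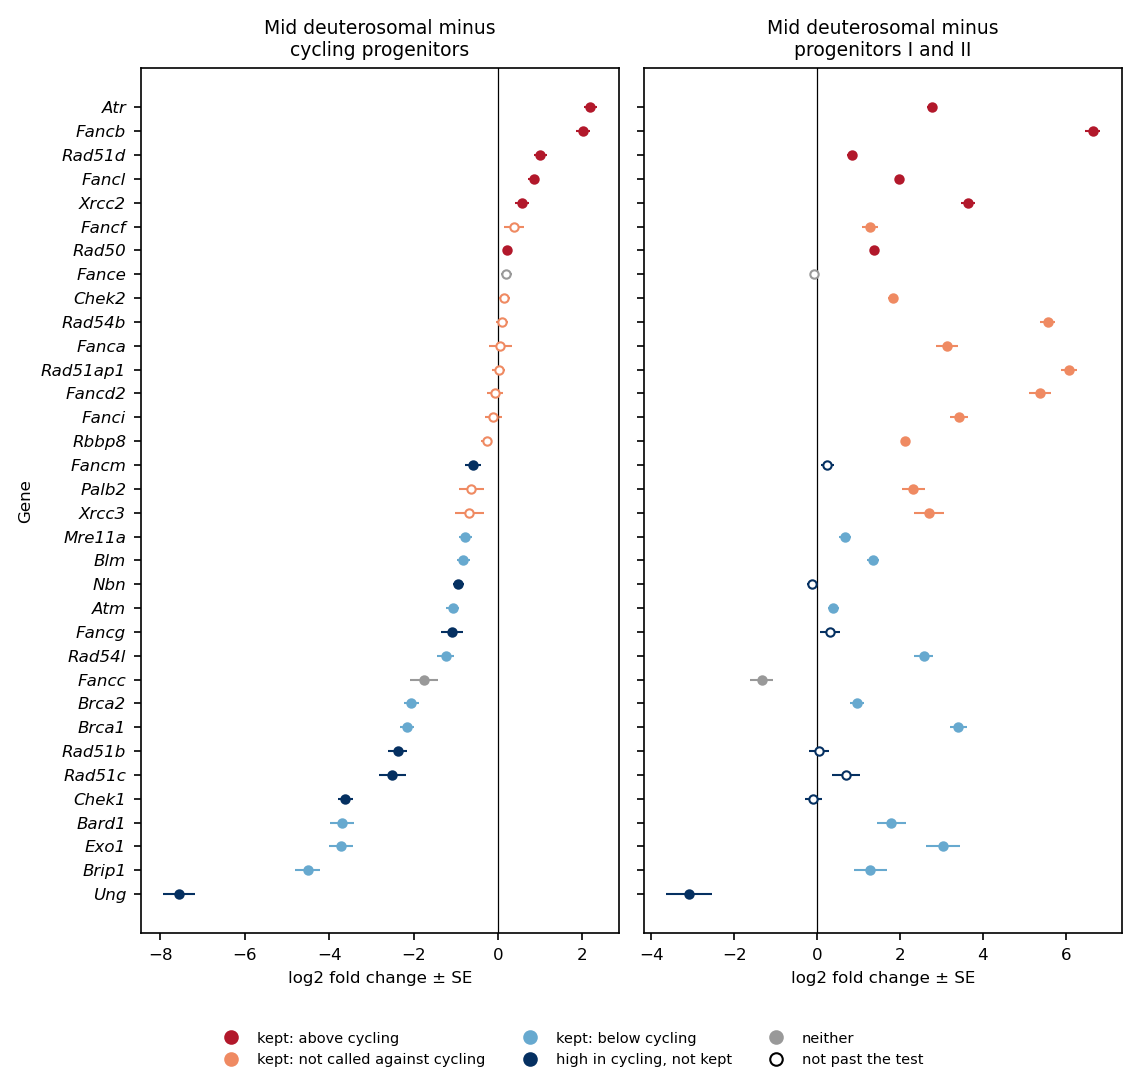
Log2 fold change ± SE of each gene in mid deuterosomal cells, against cycling progenitors on the left and against progenitors I and II on the right, with genes in the order of the left panel. Filled points passed the test, open points did not, and colours give the class of the gene; kept genes run from Atr at 2.19 to Brip1 at −4.51 on the left.

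Brca1 and its partners were all above progenitors I and II, where 38.9% of all genes were. Of these 5, 4 were below cycling progenitors, where 28.6% of all genes were. Brca1, a ubiquitin ligase that directs breaks towards recombination, had 13.3 and 19.4 CPM in mid deuterosomal cells, 72.4 and 79.2 CPM in cycling progenitors, and 1.53 and 1.46 CPM in progenitors I and II. The 3 groups did not overlap (−2.15 ± 0.17 against cycling progenitors, 3.41 ± 0.21 against progenitors I and II). Bard1, its obligate partner, had 2.68 and 2.07 CPM in mid deuterosomal cells, 30.1 and 39.8 CPM in cycling progenitors, and 0.851 and 0.525 CPM in progenitors I and II. Mid deuterosomal cells thus held 21.5% ± 4.3 of the Brca1 level of cycling progenitors and 7.04% ± 2.60 of the Bard1 level (SD, n = 2 libraries).

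Brip1, the helicase that binds BRCA1, had 1.59 and 0.647 CPM in mid deuterosomal cells, 28.9 and 37.8 CPM in cycling progenitors, and 0.545 and 0.582 CPM in progenitors I and II. It was lower than in cycling progenitors (−4.51 ± 0.29), with −3.90 in replicate 1 alone and −5.37 in replicate 2 alone. Its place among the kept genes (1.29 ± 0.39 against progenitors I and II, adjusted p = 0.00467) rests on replicate 1, since it was at 1.36 there and at 0.15 in replicate 2, and with equal cell numbers it did not pass. Brca2, which acts on resected single strands, had 17.3 and 14.6 CPM in mid deuterosomal cells, 64.0 and 86.8 CPM in cycling progenitors, and 8.30 and 9.16 CPM in progenitors I and II (−2.05 ± 0.17 and 0.97 ± 0.17). Palb2, the bridge between BRCA1 and BRCA2, had 3.76 and 4.66 CPM in mid deuterosomal cells, 6.79 and 6.98 CPM in cycling progenitors, and 0.824 and 0.824 CPM in progenitors I and II. It was not called against cycling progenitors (−0.63 ± 0.29, adjusted p = 0.0607), but was called lower under 4 of 10 alternatives.

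The paralogues Rad51b, Rad51c, Rad51d, Xrcc2 and Xrcc3, which assist strand exchange, were not all called in 1 direction. RAD51B, RAD51C, RAD51D and XRCC2 are known to form 1 complex, and 2 of these genes were higher in mid deuterosomal cells than in cycling progenitors while the other 2 were lower. Of the 2 higher calls, that of Xrcc2 was lost under 6 of 10 alternatives. Over all genes 34.4% were higher and 28.6% lower, and counts this small do not set these genes apart from those shares. Rad51d had 24.4 and 19.5 CPM in mid deuterosomal cells, 12.5 and 11.3 CPM in cycling progenitors, and 14.5 and 11.2 CPM in progenitors I and II (1.01 ± 0.16, adjusted p = 4.05e-06, and 0.83 ± 0.11, adjusted p = 3.75e-07). Cycling progenitors did not differ from progenitors I and II by the test for this gene (−0.18 ± 0.15, adjusted p = 0.365).

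Xrcc2 had 19.98 and 19.4 CPM in mid deuterosomal cells, 14.1 and 14.99 CPM in cycling progenitors, and 1.73 and 1.46 CPM in progenitors I and II. It was far above progenitors I and II (3.64 ± 0.16). Its smaller difference from cycling progenitors (0.56 ± 0.16, adjusted p = 0.00455) was lost under 6 of 10 alternatives (adjusted p between 0.00184 and 0.145).

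Rad51b had 2.68 and 1.68 CPM in mid deuterosomal cells, 13.7 and 12.3 CPM in cycling progenitors, and 2.58 and 2.00 CPM in progenitors I and II. Rad51c had 1.14 and 2.20 CPM in mid deuterosomal cells, 9.87 and 8.42 CPM in cycling progenitors, and 0.955 and 0.986 CPM in progenitors I and II. Both were lower than in cycling progenitors (−2.38 ± 0.23 and −2.50 ± 0.31), with Rad51c at −2.80 in replicate 1 alone and −1.74 in replicate 2 alone. Neither was called against progenitors I and II (0.05 ± 0.24, adjusted p = 0.872, for Rad51b and 0.70 ± 0.34, adjusted p = 0.0651, for Rad51c). Xrcc3, the partner of RAD51C in a second complex, had 2.62 and 1.29 CPM in mid deuterosomal cells, 3.50 and 3.90 CPM in cycling progenitors, and 0.374 and 0.243 CPM in progenitors I and II, and was kept (2.71 ± 0.37; 2.33 and 1.83 in single libraries).

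Among the helpers of strand exchange, Rad51ap1 and Rad54b stayed close to cycling progenitors. Rad51ap1, which stimulates strand pairing, had 75.2 and 73.4 CPM in mid deuterosomal cells, 78.2 and 80.9 CPM in cycling progenitors, and 1.36 and 0.874 CPM in progenitors I and II. That was 93.4% ± 3.8 of the level of cycling progenitors (0.02 ± 0.15, adjusted p = 0.942; the sign changed under 6 of 10 alternatives) and 6.08 ± 0.18 above progenitors I and II on the log2 scale. Rad54b, a DNA translocase, had 23.3 and 25.9 CPM in mid deuterosomal cells, 24.1 and 25.7 CPM in cycling progenitors, and 0.579 and 0.413 CPM in progenitors I and II (0.09 ± 0.14 and 5.57 ± 0.19; against progenitors I and II 4.96 and 5.42 in single libraries). The annotation gives Rad54b exons in common with Fsbp on the same strand, so its counts are uncertain. Rad54l, the other translocase, had 7.40 and 13.3 CPM in mid deuterosomal cells, 20.6 and 30.4 CPM in cycling progenitors, and 1.46 and 1.93 CPM in progenitors I and II, and was kept but below cycling progenitors (2.58 ± 0.23 and −1.24 ± 0.20).

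Of the end resection genes and their helicases, 5 of 6 were kept, where 38.9% of all genes were. Of the 6, 4 were below cycling progenitors, where 28.6% of all genes were. The MRN complex, which finds and tethers DNA ends, was split over 3 outcomes. Rad50, its coiled-coil subunit, had 123 and 124 CPM in mid deuterosomal cells, 114 and 114 CPM in cycling progenitors, and 51.8 and 46.9 CPM in progenitors I and II (0.22 ± 0.09 and 1.37 ± 0.08). The first of these differences (adjusted p = 0.0438) was lost under 8 of 10 alternatives. The nuclease Mre11a had 14.4 and 19.9 CPM in mid deuterosomal cells, 27.9 and 34.5 CPM in cycling progenitors, and 10.3 and 11.4 CPM in progenitors I and II (−0.77 ± 0.16 and 0.67 ± 0.14). Nbn, the subunit that recruits ATM, had 16.7 and 20.4 CPM in mid deuterosomal cells, 34.6 and 42.3 CPM in cycling progenitors, and 19.6 and 22.3 CPM in progenitors I and II, so it was not kept at the mid stage (−0.94 ± 0.12 against cycling progenitors and −0.13 ± 0.10, adjusted p = 0.251, against progenitors I and II). In early deuterosomal cells Nbn had 26.9 and 33.5 CPM and was above progenitors I and II (0.46 ± 0.10, adjusted p = 0.000757). That early call was lost under 1 of 10 alternatives, the one without cells with an Mki67 or Top2a UMI.

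Rbbp8, which encodes the resection factor CtIP, had 52.8 and 56.7 CPM in mid deuterosomal cells, 68.3 and 73.7 CPM in cycling progenitors, and 12.8 and 12.9 CPM in progenitors I and II. It was kept (2.13 ± 0.11) and was not called against cycling progenitors (−0.27 ± 0.12, adjusted p = 0.0670), although 4 of 10 alternatives called it lower. Exo1, the nuclease of long resection, had 2.11 and 3.11 CPM in mid deuterosomal cells, 32.0 and 40.7 CPM in cycling progenitors, and 0.308 and 0.282 CPM in progenitors I and II, which left it at 7.11% ± 0.75 of cycling progenitors (−3.72 ± 0.29) and yet above progenitors I and II (3.05 ± 0.41; 2.22 and 2.78 in single libraries). Blm, the Bloom helicase, had 18.05 and 18.9 CPM in mid deuterosomal cells, 35.1 and 34.7 CPM in cycling progenitors, and 7.71 and 7.96 CPM in progenitors I and II (−0.82 ± 0.16 and 1.35 ± 0.14).

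The 8 genes of the Fanconi core, which joins on damaged DNA to ubiquitinate its substrates, did not move as 1 unit. Against progenitors I and II, 4 were higher in mid deuterosomal cells (Fanca, Fancb, Fancf and Fancl), Fancc was lower, and 3 were not called. Of all genes, 38.9% were higher and 33.2% lower in that comparison. Fancb, a subunit of the catalytic module, had 44.8 and 47.1 CPM in mid deuterosomal cells, 10.9 and 14.2 CPM in cycling progenitors, and 0.467 and 0.507 CPM in progenitors I and II. No member lay further above progenitors I and II (6.65 ± 0.19, adjusted p = 7.6e-20), and it was also above cycling progenitors (2.02 ± 0.17, adjusted p = 1.6e-10). In thinned cells a Fancb UMI was found in 18.6% (16.1 to 21.4) and 22.5% (18.2 to 27.3) of mid deuterosomal cells, in 4.83% and 6.01% of cycling progenitors and in 0.176% and 0.165% of progenitors I.

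Fancl, the ubiquitin ligase of the same module, had 36.7 and 29.8 CPM in mid deuterosomal cells, 20.8 and 19.3 CPM in cycling progenitors, and 9.16 and 8.46 CPM in progenitors I and II (0.85 ± 0.13 and 1.98 ± 0.11). Fanca (7.69 and 8.15 CPM in mid deuterosomal cells, 8.70 and 7.39 CPM in cycling progenitors) and Fancf (8.94 and 9.58 CPM, against 8.17 and 6.78 CPM) were kept and were not called against cycling progenitors (0.06 ± 0.27 and 0.37 ± 0.24). Fancg and the helicase Fancm were not kept at the mid stage. Fancg had 3.70 and 3.11 CPM in mid deuterosomal cells and 8.28 and 7.596 CPM in cycling progenitors (−1.09 ± 0.27), and with 4.66 and 5.61 CPM in early deuterosomal cells it was above progenitors I and II there (0.75 ± 0.24, adjusted p = 0.0142). Its early call was lost under 3 of 10 alternatives and changed sign under 1 more. Fancm had 8.94 and 8.15 CPM in mid deuterosomal cells and 13.4 and 15.6 CPM in cycling progenitors (−0.59 ± 0.18, adjusted p = 0.00647), a call lost under 2 of 10 alternatives.

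Fancc had 0.968 and 0.906 CPM in mid deuterosomal cells, 2.65 and 4.93 CPM in cycling progenitors, and 2.37 and 2.81 CPM in progenitors I and II. It was lower than both (−1.74 ± 0.33 and −1.34 ± 0.28, adjusted p = 0.000123). Fance, which links the core to its substrate, had 21.8 and 19.5 CPM in mid deuterosomal cells, 21.4 and 17.0 CPM in cycling progenitors, and 23.9 and 21.02 CPM in progenitors I and II, and was called in neither comparison. Fancd2 and Fanci encode the clamp that the core ubiquitinates, and both were kept. Fancd2 had 18.2 and 12.0 CPM in mid deuterosomal cells, 17.4 and 18.9 CPM in cycling progenitors, and 0.465 and 0.234 CPM in progenitors I and II (−0.08 ± 0.19 and 5.38 ± 0.26). Fanci had 15.4 and 11.6 CPM in mid deuterosomal cells, 14.1 and 19.7 CPM in cycling progenitors, and 1.37 and 1.32 CPM in progenitors I and II (−0.11 ± 0.20 and 3.42 ± 0.21). For both genes replicate 1 lay above and replicate 2 below its own cycling progenitors.

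Ung, the glycosylase that cuts uracil out of DNA, stood furthest below cycling progenitors. Mid deuterosomal cells held 2 UMIs in replicate 1 and 1 in replicate 2 (0.114 and 0.129 CPM), against 255 and 125 UMIs in cycling progenitors (27.1 and 25.7 CPM) and 54 and 36 in progenitors I and II (1.12 and 1.27 CPM of the summed cells). The ratio to cycling progenitors was 0.00421 (95% exact interval 0.000507 to 0.0154, counting error only) for the first library. For the second it was 0.00504 (0.000127 to 0.0286). The ratio to progenitors I and II was 0.102 in both (intervals 0.0121 to 0.387 and 0.00252 to 0.607). The fitted log2 fold changes, −7.56 ± 0.39 and −3.09 ± 0.56, are set in part by the small count added in fitting.

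**Figure D3:**
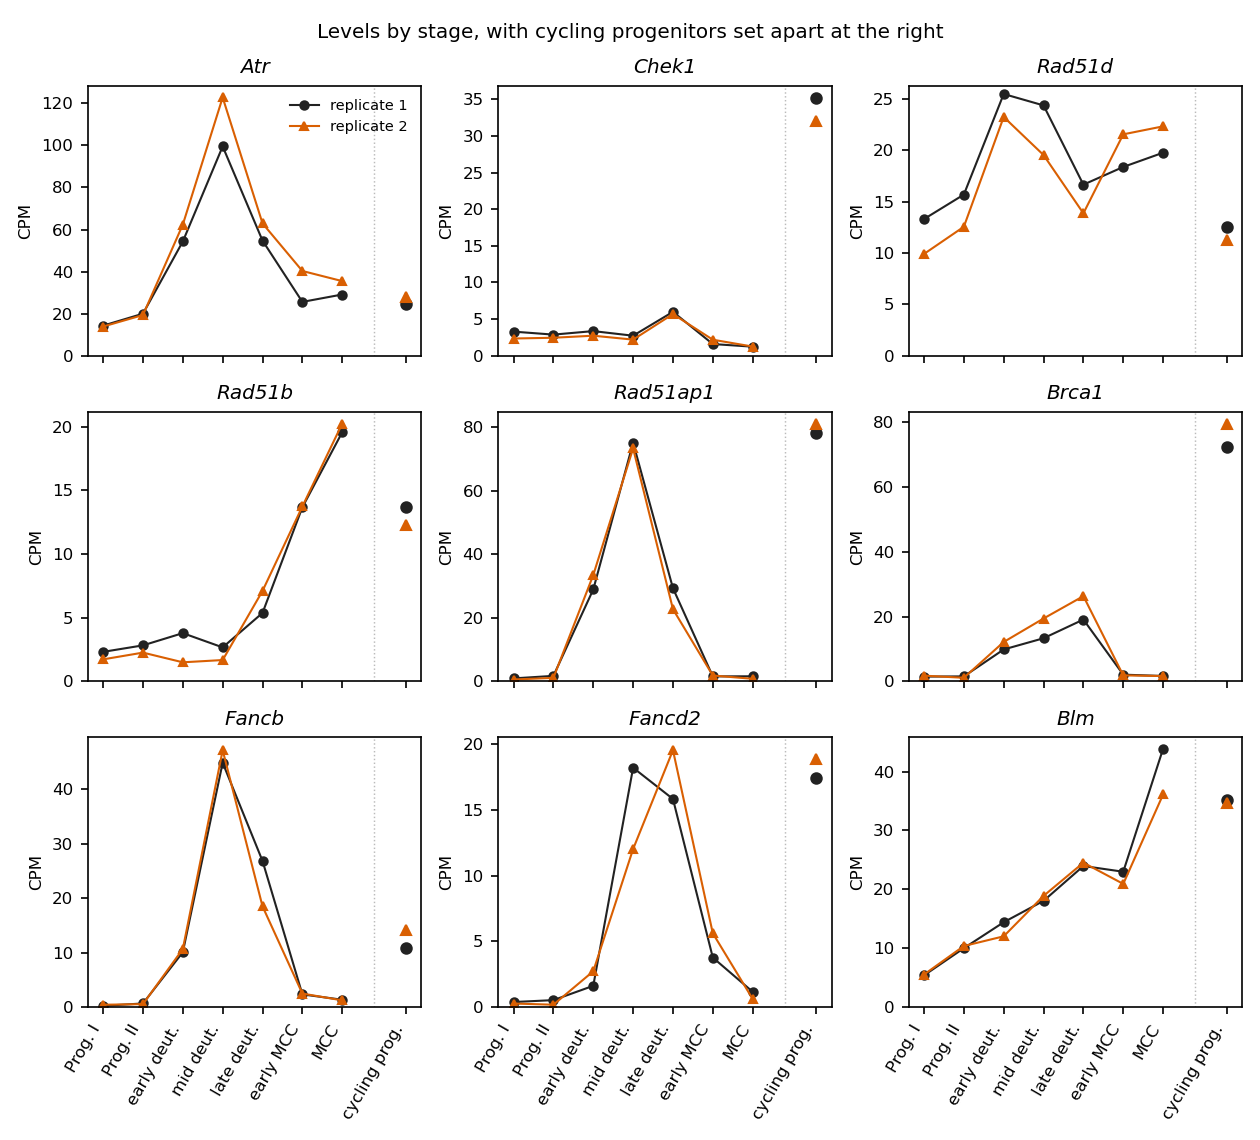
Level in CPM of 9 genes by stage, 1 line per library, with cycling progenitors as separate points at the right of each panel. Atr, Rad51ap1 and Fancb peak in mid deuterosomal cells, Brca1 in late deuterosomal cells, and Rad51b and Blm in MCCs, in both libraries.

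Along the 5 stages, the highest level fell on the same stage in both libraries for 27 of the 34 genes. It was the early deuterosomal stage for 6 (Brca2, Bard1, Brip1, Rad51d, Nbn and Fancg) and the mid stage for 10, among them Rad51ap1, Rad54b, Xrcc2, Rbbp8, Fancb and Atr. It was the late stage for 6 (Brca1, Rad51c, Exo1, Fancc, Fancl and Chek1), early MCCs for 2 (Chek2 and Ung) and MCCs for 3 (Rad51b, Blm and Fance). The other 7 genes had different highest stages in the 2 libraries.

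In early deuterosomal cells 25 members were above progenitors I and II and 0 below (edgeR; 29 had an unadjusted p under 0.05, and DESeq2 called 24 higher and 0 lower), where 21.8% and 19.8% of all genes were. The median was 0.99 for the members and −0.03 for all genes. Xrcc2 stood at 12.6 and 15.7 CPM there, against 1.73 and 1.46 CPM in progenitors I and II (3.03 ± 0.19). Rad51ap1 stood at 28.9 and 33.5 CPM in early deuterosomal cells (4.71 ± 0.22). Summed markers of dividing cells were at 184 and 285 CPM in early deuterosomal cells, and 62.7% and 71.8% of these cells had an Mki67 or Top2a UMI. Without those cells 7 members were higher, Rad51ap1, Xrcc2, Rad50, Fancb, Fancl, Atr and Chek2, and the count over all genes was lower too, at 1111 of 14601 genes higher against 3455 of 15877 with all cells.

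Late deuterosomal cells differed from mid ones for 11 members, with 3 higher and 8 lower, where 8.61% and 13.2% of all genes were. With DESeq2 size factors the split over all genes was 2023 higher and 1528 lower, where edgeR scaling gave 1367 higher and 2095 lower. Rad51ap1 had 29.3 and 22.8 CPM in late deuterosomal cells, against 75.2 and 73.4 CPM in mid ones (−1.53 ± 0.18). Rad54b (−1.55 ± 0.18), Xrcc2 (−1.41 ± 0.19), Fancb (−0.995 ± 0.15) and Atr (−0.99 ± 0.15) were lower as well, beside Rad51d, Rbbp8 and Rad50. Of these calls that of Rad50 was lost under 4 of 9 alternatives, those of Rad51d and Rbbp8 under 3 each, and that of Fancb with thinned cells. Chek1 was higher, at 5.99 and 5.69 CPM in late deuterosomal cells against 2.73 and 2.20 CPM in mid ones (1.12 ± 0.25), as were Rad51b (1.21 ± 0.28) and Fancc (1.06 ± 0.38). These 3 calls were lost with thinned cells and with equal cell numbers, and that of Fancc under 7 of 9 alternatives.

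In MCCs, which have left the cycle, 12 members were above progenitors I and II and 3 below, where 28.7% and 28.0% of all genes were. The medians were 0.21 for the members and −0.03 for all genes. Rad51b had 19.6 and 20.2 CPM in MCCs, against 2.58 and 2.00 CPM in progenitors I and II (3.003 ± 0.15, adjusted p = 1.14e-14), which was also above the 13.7 and 12.3 CPM of cycling progenitors in both libraries, a difference that was not tested. Blm had 43.9 and 36.1 CPM in MCCs, against 7.71 and 7.96 CPM in progenitors I and II (2.41 ± 0.13, adjusted p = 2.87e-14). Chek2 was at 22.6 and 29.2 CPM in MCCs (1.41 ± 0.13), while Chek1 was lower than in progenitors I and II, at 1.24 and 1.25 CPM (−1.26 ± 0.22). Brca1 and its 4 partners were not called in MCCs, with Brca1 at 1.69 and 1.67 CPM. The summed markers of dividing cells were at 16.7 and 18.8 CPM in MCCs, within their range in progenitors I and II.

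**Figure D4:**
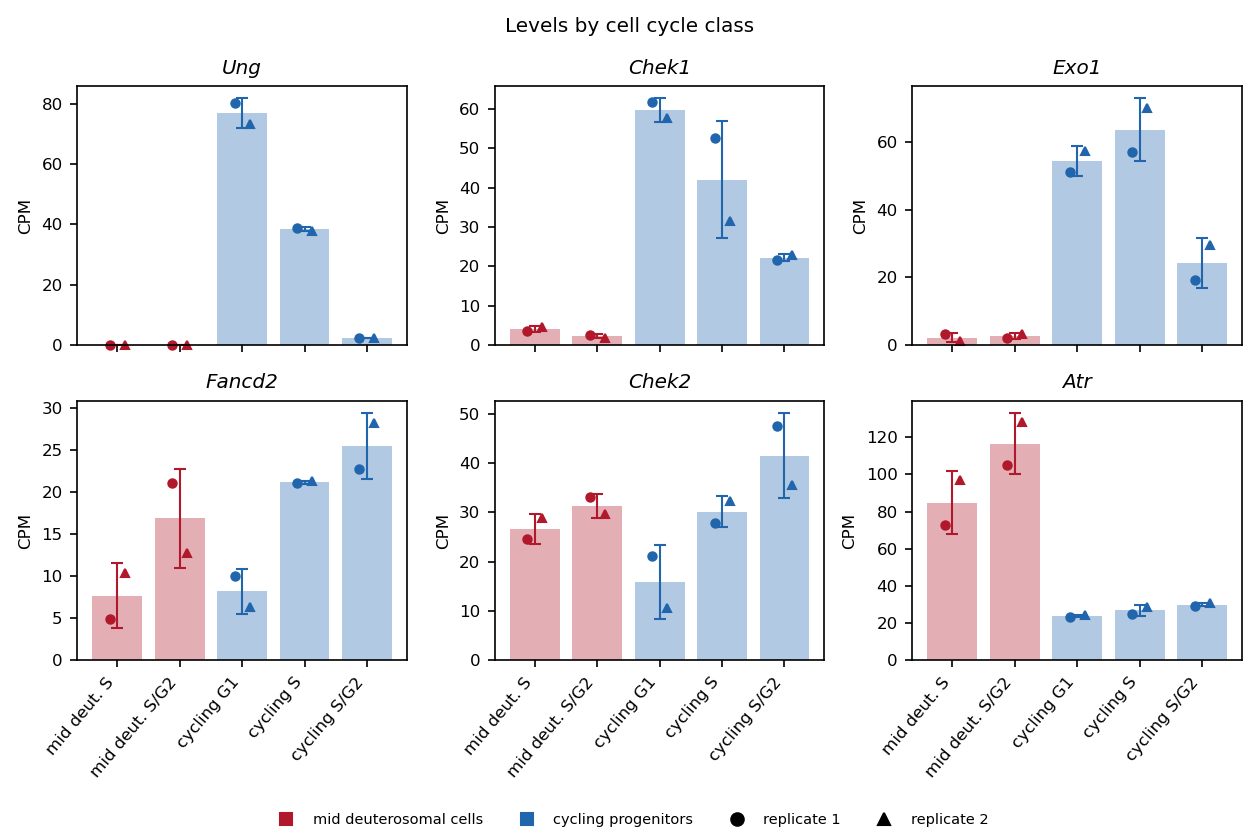
Level in CPM of 6 genes by cell cycle class, with mid deuterosomal cells at the left and cycling progenitors at the right of each panel; bars are means of 2 libraries, whiskers their SD and points the libraries. Ung, Chek1 and Exo1 are high in the G1 and S classes of cycling progenitors. Atr is higher in the S and S/G2 classes of mid deuterosomal cells than in the G1, S and S/G2 classes of cycling progenitors.

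Cell cycle class was then held fixed. Within class S/G2, 4 members were higher in mid deuterosomal cells than in cycling progenitors (Rad51d, Fancb, Fancl and Atr) and 18 were lower, where 31.7% and 34.2% of 13634 genes were. Atr had 105 and 128 CPM in S/G2 mid deuterosomal cells, against 29.2 and 30.5 CPM in S/G2 cycling progenitors (1.94 ± 0.13, adjusted p = 1.53e-20). Chek1 had 2.59 and 1.81 CPM, against 21.5 and 22.8 CPM in cycling progenitors (−3.24 ± 0.26). The medians were −0.46 for the members and −0.05 for all genes.

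Within class S, a comparison added after the data were seen, 4 members were higher in mid deuterosomal cells and 23 lower, where 24.1% and 24.7% of all genes were, with medians of −1.29 and −0.02. The 4 were again Rad51d, Fancb, Fancl and Atr, but Atr alone passed with thinned cells, and Rad51d and Fancb did not pass with equal cell numbers. Fancd2 had 4.90 and 10.4 CPM in S class mid deuterosomal cells, against 21.02 and 21.3 CPM in S class cycling progenitors (−1.71 ± 0.41). Rad51ap1 had 69.6 and 55.3 CPM, against 117 and 88.8 CPM in cycling progenitors (−0.72 ± 0.17). Rad54b was lower here too, at 24.1 and 20.7 CPM against 39.8 and 46.2 CPM (−0.87 ± 0.24). Ung had 0 UMIs in S class mid deuterosomal cells, which allows up to 1.34 and 3.46 CPM, against 38.8 and 37.9 CPM in S class cycling progenitors.

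Ung also varied with class within cycling progenitors. It had 80.3 and 73.3 CPM in class G1, 38.8 and 37.9 CPM in class S and 2.42 and 2.28 CPM in class S/G2. S/G2 mid deuterosomal cells had 0.140 and 0.151 CPM, from 2 and 1 UMIs, and were lower than S/G2 cycling progenitors (−3.87 ± 0.81, adjusted p = 2.94e-05). In cycling progenitors, 13 members were higher in class S than in class S/G2 and 0 were lower (edgeR; 16 had an unadjusted p under 0.05, and DESeq2 called 11 higher and 0 lower; 2 were higher without the library term, where the count over all genes was 166 against 592), where 4.34% and 5.13% of all genes were. Ung (4.01 ± 0.40), Exo1 (1.41 ± 0.25), Fancm (1.03 ± 0.26), Chek1 (1.02 ± 0.21) and Brip1 (1.003 ± 0.25) led them. Of the 34 members 5 (Brip1, Rad51ap1, Blm, Exo1 and Ung) are in a common S phase scoring list. The sources used here give no method for the classes, so whether these 5 helped to set them is not known.

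In early deuterosomal cells, 14 members were higher in class S than in class G0 and 0 were lower (edgeR; 18 had an unadjusted p under 0.05, and DESeq2 called 11 higher and 0 lower), where 11.1% and 8.93% of all genes were. The count was 8 without the library term and 6 with thinned cells, while that over all genes was 597 and 779 against 1517. Fancb had 31.9 and 22.3 CPM in class S, against 5.64 and 4.72 CPM in class G0 (2.40 ± 0.32). Rad51ap1 had 60.7 and 57.6 CPM in class S, against 17.9 and 14.98 CPM in class G0 (1.87 ± 0.20). Rad51d had 33.4 and 31.5 CPM in class S and 23.9 and 20.9 CPM in class G0 (0.57 ± 0.21, adjusted p = 0.0454), a call lost under 6 alternatives. Cells of class G0 were 72.7% and 69.1% of early deuterosomal cells.

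Counted per cell at 5000 UMIs, mid deuterosomal cells had a UMI of 3.16 and 3.20 members on average. Cycling progenitors had 4.14 and 4.36, progenitors I 0.984 and 0.982, and MCCs 1.52 and 1.502. These means count members, not molecules, and weigh abundant genes most.

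The rest of the pathway was read from lists of other genes. Of 43 further recombination and Fanconi genes, 14 were higher and 20 lower in mid deuterosomal cells than in cycling progenitors, and 28 were higher and 8 lower than in progenitors I and II. Of all 15877 genes tested, 34.4% were higher and 28.6% lower than in cycling progenitors. Against progenitors I and II these shares were 38.9% and 33.2%. Ube2t, the ubiquitin-conjugating enzyme that serves FANCL, had 186 and 186 CPM in mid deuterosomal cells, 115 and 94.4 CPM in cycling progenitors, and between 5.29 and 7.38 CPM in progenitors I and II (4.98 ± 0.12 against progenitors I and II). Swi5, an accessory factor of strand exchange, had 1955 and 1691 CPM in mid deuterosomal cells and 504 and 426 CPM in cycling progenitors (2.08 ± 0.14), and Rad52 was higher too (1.34 ± 0.19). Rpa2, a subunit of the protein that coats single-stranded DNA, had 3.64 and 2.59 CPM in mid deuterosomal cells, 194 and 174 CPM in cycling progenitors, and between 18.03 and 28.3 CPM in progenitors I and II, below both (−5.73 ± 0.19 and −2.78 ± 0.19).

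Of 21 other checkpoint signalling genes, 7 were higher and 8 lower than in cycling progenitors and 15 higher and 1 lower than in progenitors I and II. Over all genes the shares were 34.4% and 28.6% in the first comparison and 38.9% and 33.2% in the second. Atrip, the partner of ATR, had 31.9 and 31.3 CPM in mid deuterosomal cells and 17.7 and 16.4 CPM in cycling progenitors (0.99 ± 0.13). Clspn, the adaptor through which ATR activates CHEK1, had 12.8 and 15.4 CPM in mid deuterosomal cells and 136 and 139 CPM in cycling progenitors (−3.19 ± 0.16), though it stayed above progenitors I and II (2.61 ± 0.20). H2afx, whose histone marks DNA breaks once phosphorylated, had 1054 and 1034 CPM in mid deuterosomal cells and 731 and 662 CPM in cycling progenitors (0.69 ± 0.14).

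Of 10 end joining genes, 3 were higher and 1 lower than in cycling progenitors and 6 higher and 4 lower than in progenitors I and II. Lig3 (1.20 ± 0.13) was higher and Xrcc6, which encodes Ku70, lower (−1.39 ± 0.14) against cycling progenitors. Of 13 base excision genes other than Ung, 7 were higher and 2 lower than in cycling progenitors, and 11 were higher and 0 lower than in progenitors I and II. For both lists the shares over all genes were 34.4% and 28.6% against cycling progenitors. They were 38.9% and 33.2% against progenitors I and II. Ogg1, the glycosylase of oxidised guanine, had 130 and 142 CPM in mid deuterosomal cells and 26.6 and 21.8 CPM in cycling progenitors (2.58 ± 0.13). Neil3, a glycosylase of dividing cells, had 0.399 and 0.259 CPM in mid deuterosomal cells, from 7 and 2 UMIs, and 62.7 and 70.6 CPM in cycling progenitors.

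Of 16 genes known mainly from meiotic recombination 9 passed the filter on low counts, and 4 of these were higher and 1 lower in mid deuterosomal cells than in cycling progenitors. For these and the p53 targets below, the shares over all genes were 34.4% and 28.6% against cycling progenitors. They were 38.9% and 33.2% against progenitors I and II. Psmc3ip, which assists strand exchange, was above progenitors I and II (2.41 ± 0.08), as was Meiob (2.79 ± 0.36). Of 18 p53 target genes, 2 were higher and 11 lower than in cycling progenitors, and 2 were higher and 15 lower than in progenitors I and II. The 2 that were higher in both were Cdkn1a, at 348 and 220 CPM in mid deuterosomal cells and 129 and 114 CPM in cycling progenitors (1.33 ± 0.23), and Mdm2, at 123 and 126 CPM against 39.1 and 55.2 CPM (1.55 ± 0.12). Gadd45a (−2.69 ± 0.26) was among those that were lower than in cycling progenitors.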

How the data were processed

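Single-cell RNA of 2 mouse primary cultures was read as whole-number UMI counts per gene and cell, deposited by the authors with a population and a cell cycle class for each cell. Per the submitters' processing notes the build was mm10 and the tools were Cell Ranger 3 and Cell Ranger 5.0.1. Which version made which library, and how doublets, populations and classes were called, are not given in the sources used here, and no doublet caller was run.

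Raw counts were summed per library and population, or per library, population and class, for groups of at least 20 cells in each library, which gave 26 and 38 sums. All 34 genes passed edgeR's filter on low counts. The sums were tested with edgeR 4.0.16 (R 4.3.3), a quasi-likelihood test with TMM scaling and library as a block, two-sided, with Benjamini-Hochberg adjustment over all 15877 or 13634 genes at 0.05. Values after ± beside a log2 fold change are standard errors. The block stands for all that the populations of a library share, which includes substrain and culture, and these cannot be told apart. Deviations within a library correlated at a median of 0.18. Progenitors I and II were averaged equally. CPM scale the UMIs of each summed group to a common total. The code of the test was run on simulated counts, drawn independently for each sum and without a library effect. That run cannot show how the p-values behave under the spread between real cultures. For shares, cells were thinned to 5000 UMIs, leaving out 607 shallower cells, and exact 95% intervals cover counting error only; a count of 0 allows up to 3 counts. Gene positions are from GENCODE M21 (99.8% of gene IDs matched) and promoters from RefSeq.

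Every member could be named, with a fold change for each in the comparisons of mid deuterosomal cells with cycling progenitors and with progenitors I and II, and elsewhere for those past the test. The members, gene lists and comparisons were chosen with earlier results of these data known. Alternatives were DESeq2 1.42.0 and its size factors, no filter, no block, thinned cells, equal cell numbers, fewer populations in the fit, and cells without markers of another state. The fits do not hold fibroblasts, of which 1 library had 18 cells. No columns of other samples were used.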

Additional observations from a re-analysis of the deposited data

How the results depend on the processing

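Over the alternatives with a test, 24 to 25 members were kept and 7 to 9 were high in cycling progenitors but not kept. Of 2625 alternative values for single genes, 2262 held direction and call, 196 lost the call, 10 gained it, 126 moved and 31 changed sign. The cause of each change below was not tested.

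Without the library block, 4 members were higher and 16 lower in mid deuterosomal cells against cycling progenitors, 24 and 2 against progenitors I and II, and 24 were kept and 7 not kept. Of all 15877 genes, 4239 were higher and 3410 lower in the first comparison, and 5172 and 4246 in the second. Without the block cycling progenitors had 29 higher, early deuterosomal cells 22, late cells 2 higher and 5 lower than mid, MCCs 9 higher and 1 lower, S/G2 mid cells 4 and 16, and S mid cells 4 and 21. Of all 15877 genes, 1662 were higher in cycling progenitors and 2147 in early cells. In late cells 332 were higher and 664 lower, and in MCCs 3342 and 2561. Of 13634 genes, 3448 and 3697 were so in S/G2 mid cells, and 2700 and 2690 in S mid cells. The counts of class S over S/G2 in cycling progenitors (2) and of S over G0 in early cells (8) also fell without it, as did those over all genes (166 against 592, and 597 against 1517).

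In cycling progenitors against progenitors I and II, 1 member was lower with DESeq2 size factors, with DESeq2's Wald test and with classes S, S/G2 and G2/M only. Over all genes 3550 of 15877, 3208 of 15877 and 3444 of 15787 were lower in these settings. In early deuterosomal cells 1 was lower with size factors, without the deepest cells, with the compared populations only and with equal cells. Over all genes 3606 of 15877, 3211 of 15823, 4198 of 14283 and 3094 of 15311 were lower there. Without cells with Mki67 or Top2a 7 members were higher, where 1111 of 14601 genes were, against 3455 of 15877 with all cells. Late against mid gave 0 higher with thinned or equal cells, 5 higher with the compared populations only, and 5 lower with equal cells. Over all genes 777 of 13805 were higher with thinned cells and 860 of 15085 with equal cells. With the compared populations only, 2284 of 13518 were higher, and 959 of 15085 were lower with equal cells. MCCs had 1 lower with thinned cells, where 3050 of 13805 genes were. Class S mid against cycling gave 1 higher with thinned and 2 with equal cells, where 1858 of 10548 and 2923 of 13126 genes were. Class S over S/G2 gave 6 and 5, and S over G0 in early cells 6 with thinned cells. Over all genes these counts were 198 of 10548, 291 of 12763 and 779 of 10548.

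These log2 fold changes changed sign. Against cycling progenitors, Rad51ap1 was −0.063 with size factors, −0.070 with Wald, −0.017 without Mki67 cells, −0.055 with the class limit, −0.058 with the compared populations and −0.0082 with equal cells. Rad54b was −0.077 with the class limit and −0.17 with equal cells. Fanca was −0.017 with size factors, −0.0080 with Wald, −0.38 thinned, −0.21 with the class limit and −0.026 with the compared populations. Thinned, Fancd2 was 0.021, Fance −0.081, Fancf −0.083 and Chek2 −0.013. Chek2 was −0.041 without Mki67 cells and −0.17 with the class limit. Against progenitors I and II, Rad51b was −0.033 with size factors, −0.043 with Wald, −0.061 with the compared populations and −0.33 with equal cells, Fancm −0.061 with equal cells and Chek1 0.045 without Mki67 cells. In early cells without Mki67 or Top2a cells, Exo1 was −4.44, Rbbp8 −0.049, Mre11a −0.013 and Fancg −0.15. Rad51c in MCCs was −0.087 with equal cells, and Rad51ap1 in class S over S/G2 ran from −0.052 without replicate 1 to 0.81 without replicate 2.

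Leaving out 1 replicate leaves no residual degrees of freedom, so it gave values without a test. Both comparisons with class G2/M of cycling progenitors (17 and 8 cells) were not run, nor was the exclusion of Mki67 or Top2a cells from mid and late deuterosomal cells, of which it removed 99.3% and 98.9%, and 96.1% and 96.0%. The 3 comparisons that use class S, and the exclusion by Mki67 alone, were added after the data were seen. Genes with few UMIs, such as Ung and Neil3 in mid deuterosomal cells, are limited by depth.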

Other observations

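Brca1 was also found in the cells labelled oligodendrocytes, nearly all of class G0. It stood at 81.7 and 31.7 CPM in the oligodendrocytes of replicates 1 and 2, against 1.53 and 1.46 CPM in progenitors I and II. A Brca1 UMI was found in 26 of 64 and 12 of 38 oligodendrocytes, with 52 and 14 UMIs in all and at most 5 and 2 in 1 cell. Of these cells 25 and 11 were of class G0. At 5000 UMIs per cell the share was 22.2% (95% exact interval 12.7 to 34.5) and 17.1% (6.56 to 33.6) of oligodendrocytes, against 0.838% and 0.578% of progenitors I. Bard1, the partner of BRCA1, was at 4.71 and 0 CPM in oligodendrocytes. Their summed markers of dividing cells were at 113 and 52.1 CPM, and the part of those cells in the Brca1 level was not tested. Oligodendrocyte precursors (OPCs) had Brca1 at 74.7 and 95.7 CPM. Summed over 5 OPC markers, the level was 1611 and 1847 CPM in oligodendrocytes and 1669 and 2381 CPM in OPCs. Summed over 5 oligodendrocyte markers, it was 6446 and 4027 CPM in oligodendrocytes and 706 and 48.9 CPM in OPCs. Whether the cells labelled oligodendrocytes include cells close to OPCs was not tested.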
